A study of Homo sapiens with 4 samples.

Results

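NUAK1, the AMP-activated protein kinase (AMPK) and their relatives form a family of serine/threonine kinases. Most of them share an upstream activator, LKB1, the product of STK11, which phosphorylates their activation loop. AMPK senses a low energy charge and turns anabolic pathways off, the MARK and BRSK kinases act on microtubule-associated proteins and cell polarity, SIK2 restrains CREB coactivators, and NUAK1 and NUAK2 control myosin phosphatase and cell adhesion. NUAK1 has also been described as a kinase on which cells with high MYC depend. The 10 genes described here are NUAK1, NUAK2, PRKAA1, PRKAA2, STK11, SIK2, MARK1, MARK2, MARK3 and BRSK2, found by symbol among the 16839 gene rows of a deposited count table. They were put together with the values of these libraries already known: NUAK1 ranks among the genes furthest below their control level, and the others are its relatives and activator. Their differences between groups are therefore descriptions and carry no test.

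The libraries came from D458, an established human cell line of medulloblastoma, a tumour of the cerebellum, with amplified MYC. The shSETD8 group (2 libraries) carried lentiviral hairpins against SETD8, whose product places a single methyl group on histone H4, and the shNull group (2 libraries) carried a non-targeting hairpin. All cells had been selected with puromycin. The labels describe separate clones, so the spread within a group includes the spread between clones, and do not give here which of the SETD8 hairpins each clone carried.

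Total counts ran from 49064974 to 52627366 in shSETD8 and from 40908334 to 44527591 in shNull. SETD8 itself was at 14.0 and 26.4 normalised CPM (read counts relative to library size, after scaling for library composition) in shSETD8 replicates 1 and 2, against 38.9 and 41.6 CPM in shNull replicates 1 and 2. Relative to the mean of shNull, 34.7% and 65.5% remained in the shSETD8 libraries, and the label of that group states an 80% knockdown. MYC, at 2597 to 2954 CPM, and OTX2, at 2115 to 2481 CPM, were abundant in all 4 libraries. MYC drives such tumours, and OTX2 is a transcription factor that many of them express. Of 7 markers of blood, endothelium, fibroblasts and astrocytes, 6 were in the table, and they summed to 23.1 and 33.6 CPM in shSETD8 and 43.9 and 38.1 CPM in shNull. Most of that sum was the fibroblast gene DCN, at 18.0 and 27.6 CPM in shSETD8 and 41.4 and 35.2 CPM in shNull, while COL1A2 stayed under 0.3 CPM. COL1A1, another fibroblast gene, lay the other way, at 3.81 and 4.81 CPM in shSETD8 and 1.88 and 1.97 CPM in shNull. The blood gene PTPRC and the astrocyte genes GFAP and AQP4, all under 1 CPM, were higher in both shSETD8 libraries too. The part of these markers in the results was not tested. In bulk RNA, fewer cells that express a gene and less RNA per cell cannot be told apart.

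The 250 bases before the start of NUAK1 and of PRKAA2 are shown because these genes stood furthest below and furthest above their shNull level among the 10. Sequences are from RefSeq on GRCh38.p14, while the counts were made on hg19. They read 5′ to 3′ on the gene's own strand, with each GC box (GGGCGG on either strand) in capitals. NUAK1 lies on the minus strand at chr12:106138955-106139204 and PRKAA2 on the plus strand at chr1:56645064-56645313.
NUAK1: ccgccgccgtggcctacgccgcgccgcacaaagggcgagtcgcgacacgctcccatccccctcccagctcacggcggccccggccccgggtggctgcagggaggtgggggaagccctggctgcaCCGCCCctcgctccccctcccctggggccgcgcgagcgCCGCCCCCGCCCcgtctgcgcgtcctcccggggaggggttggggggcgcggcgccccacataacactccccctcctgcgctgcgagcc
PRKAA2: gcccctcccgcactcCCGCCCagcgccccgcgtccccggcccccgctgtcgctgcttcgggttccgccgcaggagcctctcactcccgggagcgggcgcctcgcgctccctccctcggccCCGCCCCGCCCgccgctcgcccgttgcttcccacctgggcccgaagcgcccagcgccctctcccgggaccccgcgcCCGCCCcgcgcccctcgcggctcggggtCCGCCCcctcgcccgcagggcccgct

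The NUAK1 window held 3 GC boxes and the PRKAA2 window held 5, some of them adjoining or overlapping. At least 1 GC box was found in 42.6% of 35116 windows of the same length. Neither window held the E-box CACGTG, the preferred motif of MYC with MAX, which 6.34% of windows hold. Neither held TGACGTCA, the full cyclic AMP response element, which 1.65% of windows hold. Both were rich in G and C, at 79.6% for NUAK1 and 83.2% for PRKAA2, where the median of all windows was 58%. Members closer to their shNull level had such windows too, namely PRKAA1 (80.8%, 8 GC boxes), SIK2 (80.0%, 3) and STK11 (76.0%, 2). The windows of MARK3 (70.4%), NUAK2 (66.4%), MARK2 and BRSK2 (58.0% to 67.2%) held less G and C. Of the members' windows, only a BRSK2 window held the E-box and none held TGACGTCA. MARK1 had no window.

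NUAK1, which binds and phosphorylates the myosin phosphatase targeting subunit, stood furthest apart. It had 86 and 45 counts, or 1.64 and 0.922 CPM, in shSETD8 replicates 1 and 2, against 434 and 260 counts, or 9.83 and 6.25 CPM, in shNull replicates 1 and 2. The highest shSETD8 library was well below the lowest shNull library. NUAK1 averaged 1.28 ± 0.508 CPM in shSETD8 and 8.04 ± 2.53 CPM in shNull (SD, n = 2 each), and the shSETD8 libraries held 20.4% and 11.5% of the shNull mean. The log2 fold change was -2.65 ± 0.41 (SE), the 14th most negative of 14546 genes tested. The lower of the shSETD8 values was in replicate 2, the library with more SETD8 mRNA left. The replicates of NUAK1 also lay apart within each group, by 0.83 on the log2 scale in shSETD8 and by 0.65 in shNull, both less than the distance between the groups.

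NUAK2, the paralogue of NUAK1, was a low-abundance transcript and lay in the other direction. It was at 2.04 and 2.38 CPM in shSETD8 and at 1.59 and 1.52 CPM in shNull, with no overlap between groups. The log2 fold change was 0.51 ± 0.28 (SE), less than 2 standard errors from 0 on 63 to 116 counts per library. Scaled by exon length, NUAK1 was at 0.405 and 0.195 times the NUAK2 level in shSETD8, against 3.12 and 2.08 times in shNull. The more abundant NUAK transcript per length was thus NUAK2 in both shSETD8 libraries and NUAK1 in both shNull libraries. The summed length-scaled level of the pair was 0.829 ± 0.00552 CPM per kb in shSETD8 and 1.63 ± 0.385 CPM per kb in shNull (SD, n = 2 each).

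**Figure D1:**
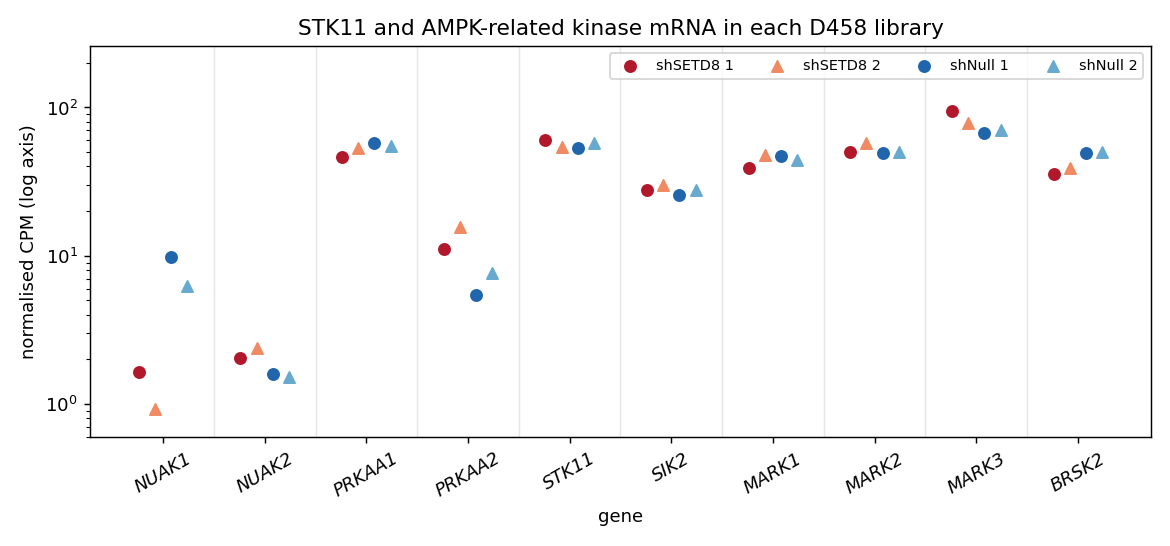
Normalised CPM (log axis) of the 10 genes in each library, with shSETD8 replicates in red and orange and shNull replicates in dark and light blue, 1 point per library. NUAK1 was at 1.64 and 0.922 CPM in shSETD8 and 9.83 and 6.25 CPM in shNull, PRKAA2 was higher in both shSETD8 libraries, and the points of STK11, SIK2 and MARK1 overlap between groups.

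The catalytic subunits of AMPK differed from each other. PRKAA2, which encodes the alpha 2 subunit, was at 11.1 and 15.7 CPM in shSETD8 and at 5.46 and 7.60 CPM in shNull. Both shSETD8 libraries were above both shNull libraries, with means of 13.4 ± 3.23 and 6.53 ± 1.51 CPM (SD, n = 2 each) and a log2 fold change of 1.04 ± 0.27 (SE). PRKAA1, which encodes the alpha 1 subunit, was at 46.2 and 53.4 CPM in shSETD8 and at 57.4 and 54.8 CPM in shNull. Its groups did not overlap either, but shSETD8 replicate 2 lay close to shNull replicate 2, and the log2 fold change was -0.17 ± 0.12 (SE). Per exon length, PRKAA1 remained the more abundant subunit, at 6.64 and 5.43 times PRKAA2 in shSETD8 and at 16.8 and 11.5 times in shNull. The summed length-scaled level of both subunits was 9.93 ± 1.21 CPM per kb in shSETD8 and 10.3 ± 0.161 CPM per kb in shNull (SD, n = 2 each), a difference smaller than the shSETD8 spread.

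STK11, the shared activator, was at 60.4 and 54.0 CPM in shSETD8 and at 53.7 and 57.6 CPM in shNull. The groups overlapped, and the log2 fold change was 0.04 ± 0.11 (SE). On the opposite strand, annotated exons of CBARP cover 4.77% of the exonic bases of STK11, and those of PPP2R1B cover 1.55% of SIK2. No source used here says whether reads were counted by strand, and the other 8 genes share no exonic base with another annotated gene.

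Among the kinases that act on microtubules and polarity, MARK3 was at 94.3 and 78.6 CPM in shSETD8 and at 67.1 and 69.9 CPM in shNull, a log2 fold change of 0.34 ± 0.12 (SE). BRSK2, a kinase of neuronal polarity, was at 35.4 and 39.0 CPM in shSETD8 and at 48.9 and 50.4 CPM in shNull, a log2 fold change of -0.42 ± 0.11 (SE). Neither gene overlapped between groups, and they lay in opposite directions. MARK2 was at 50.4 and 58.0 CPM in shSETD8 and at 49.1 and 50.0 CPM in shNull, where shSETD8 replicate 1 was barely above the shNull libraries. MARK1 overlapped, at 39.1 and 47.6 CPM in shSETD8 and at 47.1 and 44.0 CPM in shNull. SIK2, an inhibitor of the CREB coactivators, was at 27.8 and 29.8 CPM in shSETD8 and at 25.7 and 27.9 CPM in shNull, also with overlap.

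**Figure D2:**
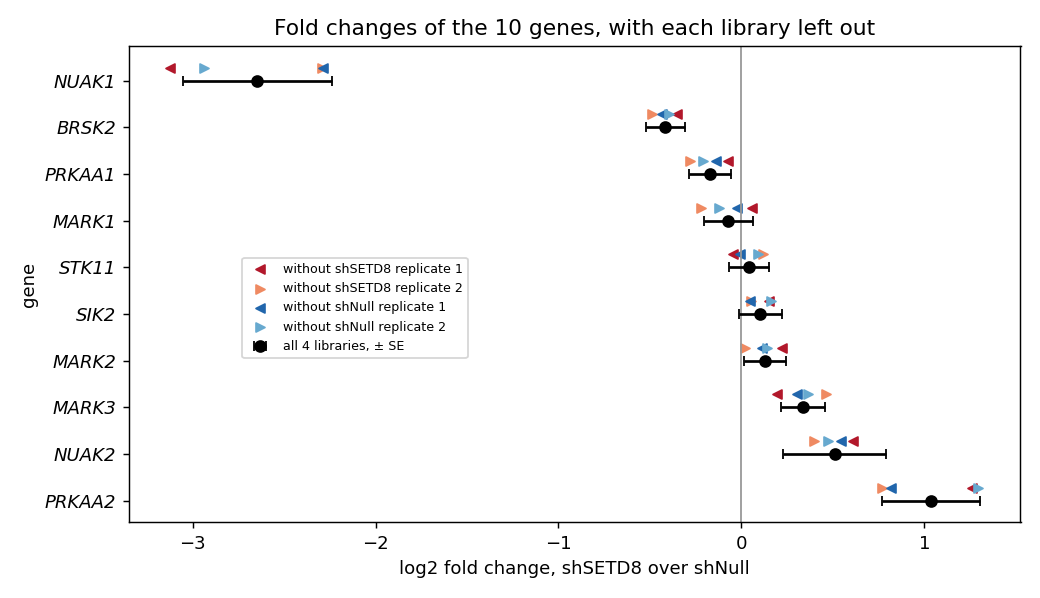
Log2 fold change of each gene, shSETD8 over shNull, from all 4 libraries (black, bars ± SE) and with each library left out (coloured triangles). NUAK1 stayed between -3.13 and -2.28 and PRKAA2 between 0.77 and 1.29, while STK11 and MARK1 lay on both sides of 0.

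Over the 10 genes, which all passed the filter on low counts, 4 had a log2 fold change below 0 and 6 above it. The median was 0.07, against 0.01 over all genes tested, and the median size regardless of direction was 0.25, against 0.18. Both shSETD8 libraries lay below both shNull libraries in 3 of the 10 (22.4% of all genes tested) and above them in 4 (22.9%). edgeR's quasi-likelihood test called 0 of the 10 at an adjusted p under 0.05, as it did over all genes (0%). At an unadjusted p under 0.05 it gave 1573 of 14546 genes (10.8%), with NUAK1, PRKAA2, BRSK2 and MARK3 among them. DESeq2 called 2 of the 10, and 1.94% of all genes. These were NUAK1, lower in shSETD8 (as 1.02% of genes were called), and PRKAA2, higher in shSETD8 (0.928%). Since the genes were chosen on this contrast, nothing is read from these counts. The log2 difference between replicates was wider in shSETD8 than in shNull for 9 of the 10 genes, as for 70.0% of all genes tested. SIK2 was the exception.

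Scaled by exon length, the order in shSETD8 was MARK3 at 24.2, STK11 at 18.3, MARK2 at 10.5, PRKAA1 at 8.50, MARK1 at 8.14, BRSK2 at 6.57, SIK2 at 2.98, PRKAA2 at 1.43, NUAK2 at 0.642 and NUAK1 at 0.188 CPM per kb. PRKAA1 was above MARK1 in each of these libraries, but by less than either gene differed between them. In shNull MARK3 was at 19.2, STK11 at 17.8, MARK2 at 9.63, PRKAA1 at 9.57, BRSK2 at 8.76, MARK1 at 8.56, SIK2 at 2.77, NUAK1 at 1.18, PRKAA2 at 0.698 and NUAK2 at 0.451 CPM per kb. In that group the order of MARK2 and PRKAA1, and that of BRSK2 and MARK1, differed between the libraries. NUAK1 stood below every other gene of the set in both shSETD8 libraries, and above PRKAA2 and NUAK2 in both shNull libraries.

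The 9 kinases without STK11 summed to 63.2 ± 0.877 CPM per kb in shSETD8 and 60.8 ± 0.0710 CPM per kb in shNull (SD, n = 2 each). MARK3 made up 42.2% and 34.5% of that sum in shSETD8 and 30.9% and 32.2% in shNull, the greatest share in each library. NUAK1 made up 0.384% and 0.212% in shSETD8 and 2.37% and 1.51% in shNull. NUAK1 was therefore a minor transcript of the family in every library.

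**Figure D3:**
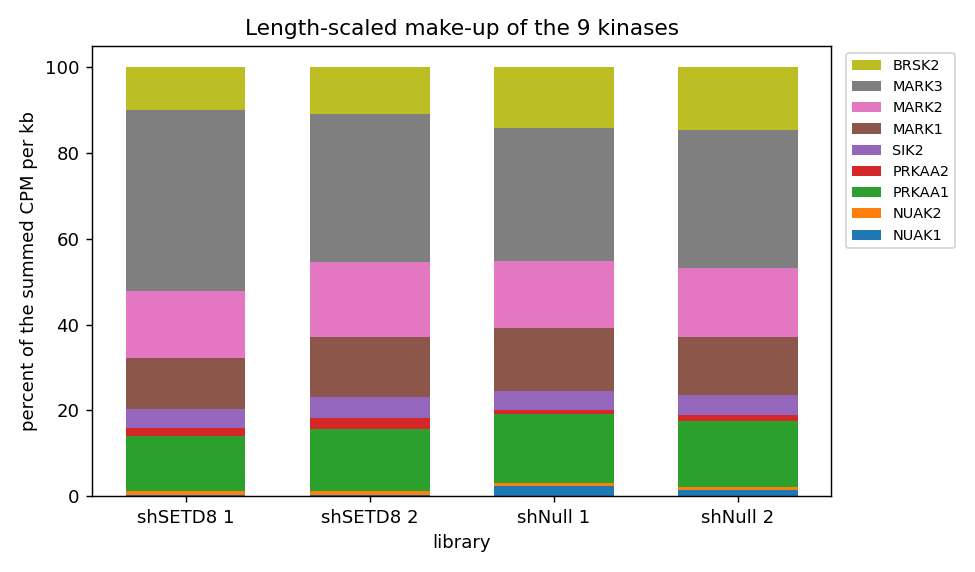
Share of each kinase in the summed length-scaled level (CPM per kb) of the 9 kinases, 1 stacked bar per library, from 0 to the full sum. MARK3 is the greatest share in each library, BRSK2 is narrower in both shSETD8 bars, and the NUAK1 band at the base is 0.384% and 0.212% in shSETD8 against 2.37% and 1.51% in shNull.

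The genes whose pattern over the 4 libraries lay nearest to that of NUAK1 were named by the smallest Euclidean distance between log2 CPM values centred on the shNull mean, among 11588 genes averaging 100 or more normalised counts. They were SORCS2 (distance 0.522), a neuronal sorting receptor, IGFBP2 (0.798), which binds insulin-like growth factors, PDPN (0.961), a membrane mucin, TMOD2 (1.03), a neuronal actin capping protein, and SHISA9 (1.04), an auxiliary subunit of AMPA receptors. The median distance was 3.80. Any gene near its shNull level in all libraries lies far from NUAK1 on this measure, so that median reflects the fold change of NUAK1 itself. SORCS2 was at 2.92 and 1.27 CPM in shSETD8 and at 20.8 and 10.0 CPM in shNull, with the lower value in replicate 2 of each group, as for NUAK1. IGFBP2 was at 16.2 and 13.0 CPM in shSETD8 and at 73.2 and 55.6 CPM in shNull, with the same order of replicates. Of the 5 genes, 3 had this order in both groups, while PDPN and SHISA9 were higher in shNull replicate 2 than in shNull replicate 1. With 4 libraries and a distance chosen for a large fold change, such likeness is a description.

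Around the 10 genes, 49 others in 7 lists were measured, and all passed the filter. They comprise the remaining AMPK-related kinases, AMPK regulatory subunits with LKB1 partners, other upstream kinases, NUAK-bound phosphatase subunits with regulators, and substrates of AMPK, of SIK and of MARK or BRSK. edgeR called 0 of the 49 higher and 0 lower, against 0% of all genes, and 4 had an unadjusted p under 0.05, where 10.8% of all genes did. DESeq2 called 0 of the 49 higher (0.928% of all genes) and 1 lower (1.02%). The median log2 fold change of the 49 was 0.01, with 26 above 0 and 23 below, and was 0.01 over all genes tested as well. Without shSETD8 replicate 1 edgeR called 2 of the 49 and 9.55% of all genes tested, and without shSETD8 replicate 2 it called 12 of the 49 and 17.2% of all.

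The DESeq2 call was HUNK, a more distant relative of AMPK. It was at 18.9 and 18.8 CPM in shSETD8 and at 29.7 and 29.4 CPM in shNull, so the replicates lay close together and the groups did not overlap. Its log2 fold change was -0.65 ± 0.12 (SE). The adjusted p was 0.352 by edgeR and 0.0045 by DESeq2, and edgeR with other settings or with a library left out gave an adjusted p from 0.00562 to 1.00. NIM1K, the other kinase of that list with the lowest p, had a log2 fold change of 1.32 ± 0.49 (SE) at under 1 CPM in every library. The list's remaining members included MELK, a kinase of proliferating cells, at 72.4 and 55.1 CPM in shSETD8 and at 65.1 and 64.9 CPM in shNull.

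Among AMPK subunits and LKB1 partners, 0 of 9 had an unadjusted p under 0.05 in edgeR, where 10.8% of all genes did. DESeq2 gave 0 of 9 as well, and its share over all genes was not computed. In a list this short, a count of 0 says little. STRADB, a pseudokinase that activates LKB1, was at 21.1 and 54.1 CPM in shSETD8 and at 73.8 and 49.8 CPM in shNull, so the groups overlapped and the shSETD8 libraries differed widely. PRKAG3, the gamma 3 subunit, was under 1 CPM. The scaffold gene CAB39 was at 59.0 and 58.9 CPM in shSETD8 and at 62.0 and 60.7 CPM in shNull. Of the 3 other upstream kinases, CAMKK1 had a log2 fold change of 0.19 ± 0.11 (SE) and MAP3K7 one of -0.12 ± 0.09 (SE), neither past the test.

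Among the phosphatase subunits and regulators around NUAK1, the members lay in different directions. PPP1R12A, the myosin phosphatase targeting subunit MYPT1, was at 39.4 and 41.1 CPM in shSETD8 and at 39.4 and 42.2 CPM in shNull. Its relatives PPP1R12B (47.5 and 75.2 CPM in shSETD8, 60.4 and 59.6 CPM in shNull) and PPP1R12C (52.8 and 38.2 CPM in shSETD8, 43.8 and 46.9 CPM in shNull) had shSETD8 libraries on either side of shNull. PPP1CB, the catalytic subunit of that phosphatase, was below both shNull libraries in both shSETD8 libraries, with a log2 fold change of -0.21 ± 0.11 (SE), and PPP1R10, a nuclear regulator of protein phosphatase 1, one of -0.04 ± 0.10 (SE). None of the 6 genes of that list had an unadjusted p under 0.05 in edgeR, against 10.8% of all genes. The same held in DESeq2, whose share over all genes was not computed. Such a count says little in a list of 6 genes.

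Of 10 AMPK substrate genes, 8 had a log2 fold change above 0 and 2 below, with a median of 0.08. Over all 14546 genes tested, 7446 lay above 0, and most of the 8 lay less than their SE from 0. In edgeR 0 of these substrate genes had an unadjusted p under 0.05, against 10.8% of all genes. DESeq2 gave 0 as well, without a computed share over all genes, and in a list this short such counts say little. RPTOR, the mTORC1 scaffold, was at 0.12 ± 0.10 and FNIP1, a folliculin partner, at -0.26 ± 0.16 (log2 fold change ± SE). Among SIK substrates, the CREB coactivator CRTC1 was at 14.1 and 17.7 CPM in shSETD8 and at 24.6 and 21.3 CPM in shNull, without overlap, with a log2 fold change of -0.53 ± 0.17 (SE) and an edgeR adjusted p of 0.425. Its relative CRTC2 was at 0.21 ± 0.13. Among MARK and BRSK substrates, the neuronal microtubule protein DCX was at 1.16 and 1.58 CPM in shSETD8 and at 4.44 and 2.24 CPM in shNull, with a log2 fold change of -1.29 ± 0.43 (SE) and an edgeR adjusted p of 0.431. The kinesin KIF13B had a log2 fold change of 0.29 ± 0.16 (SE).

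**Figure D4:**
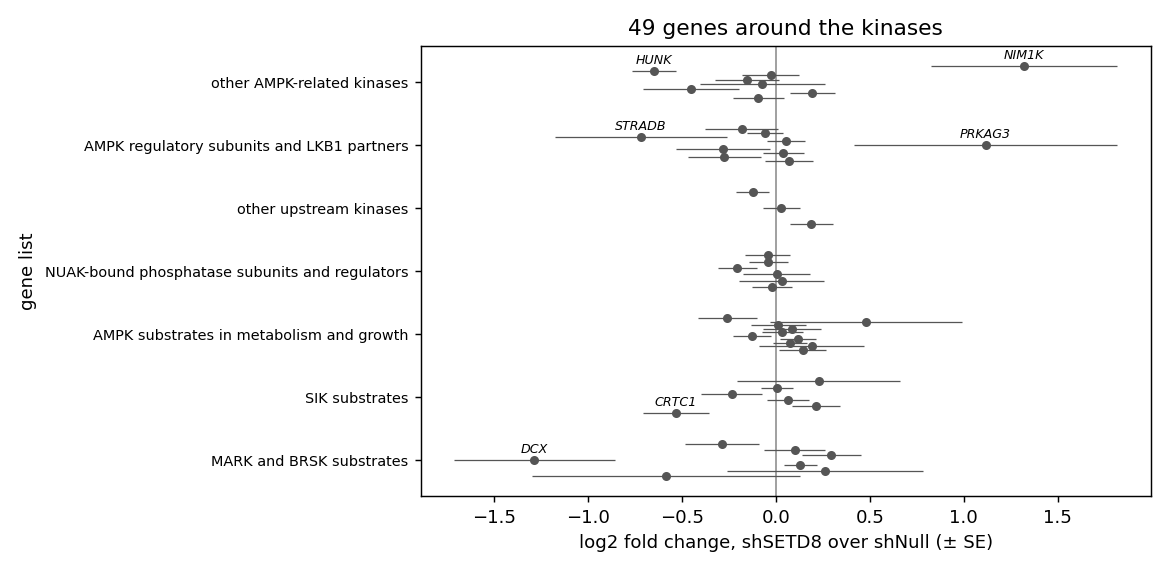
Log2 fold change, shSETD8 over shNull, of 49 genes around the kinases, grouped in 7 lists, with bars of ± SE and 1 point per gene. Most points lie near 0; HUNK, at -0.65, has a narrow bar, whereas NIM1K, at 1.32, and PRKAG3, at 1.12, have wide bars at low counts.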

How the data were processed

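The authors deposited a table of raw whole-number counts per gene, not normalised, with Entrez identifiers and symbols. The submitters' processing notes name STAR 2.4.0.1, Trimmomatic 0.36, DESeq 1.32.0, FastQC 0.10.1 and build hg19. No source used here gives the counting program or its strand setting. Libraries were stranded and poly(A)-selected, per the labels' protocols. Groups follow the treatment label, and replicate numbers only name libraries. Another 2 count columns matched no sample and were not used. In 65 rows the symbol was missing or turned into a date (0.429% to 0.490% of counts). They stayed in the tests under their Entrez identifiers.

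Counts were fitted with edgeR 4.0.16 (R 4.3.3, quasi-likelihood F test, TMM, filterByExpr) over 14546 genes, 2293 being removed, and p-values were Benjamini-Hochberg adjusted over all of them at 0.05. An SE was obtained by dividing the size of the log2 fold change by √F. CPM uses TMM library sizes. DESeq2 1.42.0, other scalings, no filter and each library left out were the alternatives. Lengths are merged exons of GENCODE 29 (GRCh38), which is not the authors' build. Nearest genes used a prior count of 2. P-values refer to the spread between these clones and to no wider one. Both tools estimate a gene's spread partly from that of the other genes. The members and lists were chosen with earlier results of these data known. Named genes were the 10 members, up to 2 genes with the lowest p per list, the 5 genes nearest to NUAK1, SETD8, MYC and OTX2. MELK, CAB39, PPP1R12A, PPP1R12B, PPP1R12C, CBARP and PPP2R1B were named outside this rule, after their values were seen. So were the other-cell markers DCN, COL1A1, COL1A2, PTPRC, GFAP and AQP4.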

Additional observations from a re-analysis of the deposited data

How the results depend on the processing

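No paired analysis was possible because the labels give no replicate numbers shared between groups. With DESeq2 size factors, total counts only or no filter, each of the 10 log2 fold changes kept its direction and its side of the threshold in edgeR, and 0 genes were called. DESeq2 called 283 genes, 1 of the 49 related genes, and gave NUAK1 a log2 fold change of -2.65. With a library left out, edgeR called 0 to 2550 genes, 0 to 12 of the related genes and 0 to 4 of the 10 genes, the last being no test since those were chosen on this contrast. NUAK1 ranged from -3.13 to -2.28. STK11 ranged from -0.046 to 0.12 and MARK1 from -0.22 to 0.060, so their directions turned, and 4 or 5 of the 10 genes were lower. With 1 library left in a group, the fit assumes for it the spread of the other group. STK11 turned without shSETD8 replicate 1 (-0.046) and without shNull replicate 1 (-0.0098), and MARK1 without shSETD8 replicate 1 (0.060). The cause was not tested. All 5 genes nearest to NUAK1 were the same with a prior count of 0.5. NUAK1 and NUAK2 had low counts, at 45 to 434 and 63 to 116 per library. How far counting limited their precision was not tested.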
